A study of Mus musculus with 2 samples.

Results

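Polycomb repressive complex 2 (PRC2) was followed at the level of messenger RNA in mouse embryonic stem (ES) cells whose topoisomerase II had been inhibited. The genes were chosen by name, as rows of the deposited table: Ezh1, Ezh2, Eed, Suz12, Rbbp4, Mtf2, Phf1, Phf19, Jarid2 and Aebp2, which is 10 of the 21937 genes listed and of the 18759 genes with reads. Both groups were wild-type, feeder-free ES cells of mixed strain (129Sv-C57Bl/6). One received ICRF-193, which blocks the catalytic cycle of topoisomerase II without trapping cut DNA, at 500 nM for 16 h, and the other received DMSO for the same time. Each group is labelled as 3 replicates. Whether these were separate cultures is not labelled, and p-values here describe the spread of these libraries, which may be technical. The deposited table gives 1 mean per group in normalised reads (each library's reads over its size factor), and the reads of each library were worked back from its digits. Within a group the library of the largest size factor is called A, the next B and the last C, and these letters are no replicate numbers.

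PRC2 places methyl groups on lysine 27 of histone H3, a mark of silenced developmental genes. Its core holds a methyltransferase (EZH2, or its relative EZH1), the scaffold SUZ12, EED, which binds the finished mark and stimulates the enzyme, and a histone-binding protein (RBBP4 or RBBP7). Accessory proteins define its forms: one of the Polycomb-like proteins MTF2, PHF1 and PHF19 in one form, JARID2 and AEBP2 in the other. ES cells without PRC2 keep renewing themselves but differentiate poorly, which has made them a common model for this complex.

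In both groups library A differed from B and C in the summed level of markers of other cell types. The recovered totals were 27371216 to 43923529 reads per library, from all but 41 genes of high level. All 11 ES cell markers had reads, with a summed level of 174666 to 195497 normalised reads in the DMSO libraries and 114649 to 131944 in the ICRF-193 libraries. All 11 had a ratio below 1 in the authors' deposited table, with a median log2 fold change of -0.55. A ratio below 1 was also seen for 9 of the 10 PRC2 genes, and for 8866 of 17705 genes with both means above 0. Between libraries the sums went apart. That of the ES cell markers was lowest in library A of both groups, and that of the PRC2 genes was highest there. The PRC2 sum was 117283, 98678 and 92730 in the DMSO libraries and 83215, 74010 and 73096 in the ICRF-193 libraries, in the order A, B, C. Genes of high level weigh most in these sums. Phf1, Phf19 and Rbbp4 went against the PRC2 sum, with a lower level in library A than the mean of B and C in both groups. Single ES cell markers are not given by library here and may differ from their sum. Of the 11 ES cell markers, Zfp42 and Lin28a fell in the authors' deposited table (log2 fold changes of -0.99 and -0.81, DESeq, adjusted p = 0.00186 and 0.017). In that test 1.26% of all genes with reads were called lower. Of the same 11, limma-voom called 3 lower with the group term and 11 with the split term described below (5.96% and 32.6% of all genes). The summed level of 11 fibroblast or feeder markers was 45133, 6531 and 7151 in the DMSO libraries and 55766, 10692 and 9016 in the ICRF-193 libraries, in the order A, B, C. That of 8 primitive endoderm markers was 39464, 7846 and 10568 with DMSO and 36725, 12035 and 12238 with ICRF-193. The summed level of 5 neuron markers was lower in A, at 17125, 21955 and 20574 with DMSO and 14226, 18055 and 17154 with ICRF-193. Thy1 of the fibroblast list was also lower in A, at 185, 281 and 311 with DMSO and at 353, 381 and 469 with ICRF-193. None of these markers was at 0 over all libraries, and their part in the results below was not tested. In bulk samples, fewer cells of a type and less RNA per cell cannot be told apart. Of the targets of the drug, Top2a, the main form in dividing cells, was at 39346 and 27163 normalised reads in DMSO and ICRF-193 and Top2b at 4376 and 4082 in the authors' deposited table (DESeq, adjusted p = 0.176 and 0.974). All 3 treated libraries were below the controls for Top2a, which was called lower with the term for the library split described below (limma-voom, log2 fold change -0.54, adjusted p = 3.1e-06) and not with the group term (limma-voom, adjusted p = 0.1). Results are given also for libraries A alone, and for libraries B and C.

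After ICRF-193, 9 of the 10 PRC2 transcripts were at a lower mean level and 1, Phf1, at a higher one, but none passed the authors' test. Among those lower, the ratio was lowest for Jarid2, at 0.652 of its DMSO level, and Ezh2, at 0.685, and Phf1 was at 1.62 times its DMSO level. By DESeq, in the authors' deposited table, 0 of 10 members were called at an adjusted p under 0.05, while 1.26% of all genes with reads were called lower and 5.97% higher. At an unadjusted p under 0.05 in that table, 2 members, Jarid2 and Ezh2, were lower, against 5.38% of all genes. The members' median log2 fold change in the authors' deposited table was -0.38, and that of all genes with both means above 0 was -0.001. For the 14986 genes tested by limma-voom the median in that table was -0.044. Neither set of genes was matched to the members for level. On the recovered reads limma-voom with the group as its only term called 2 members lower, Ezh2 and Jarid2, and 0 higher (5.96% and 9.76% of 14986 genes). A second model, in which library A against B and C was a further term (the split term), called 8 members lower and 1 higher, and also 32.6% of all genes lower and 27.1% higher. Without both libraries A the counts were again 8 and 1 (28.8% and 25.1% of all genes), with Phf19 in place of Aebp2 among those lower. With the split term and scaling by total reads they were 7 and 1 (20.6% and 35.4%). In that last fit the members' median log2 fold change was -0.25, beside 0.08 for all genes. In 5 members the 3 ICRF-193 libraries all lay below the 3 DMSO libraries, which was so for 18.8% of all genes, and in 0 members did they all lie above (18.7%).

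**Figure D1:**
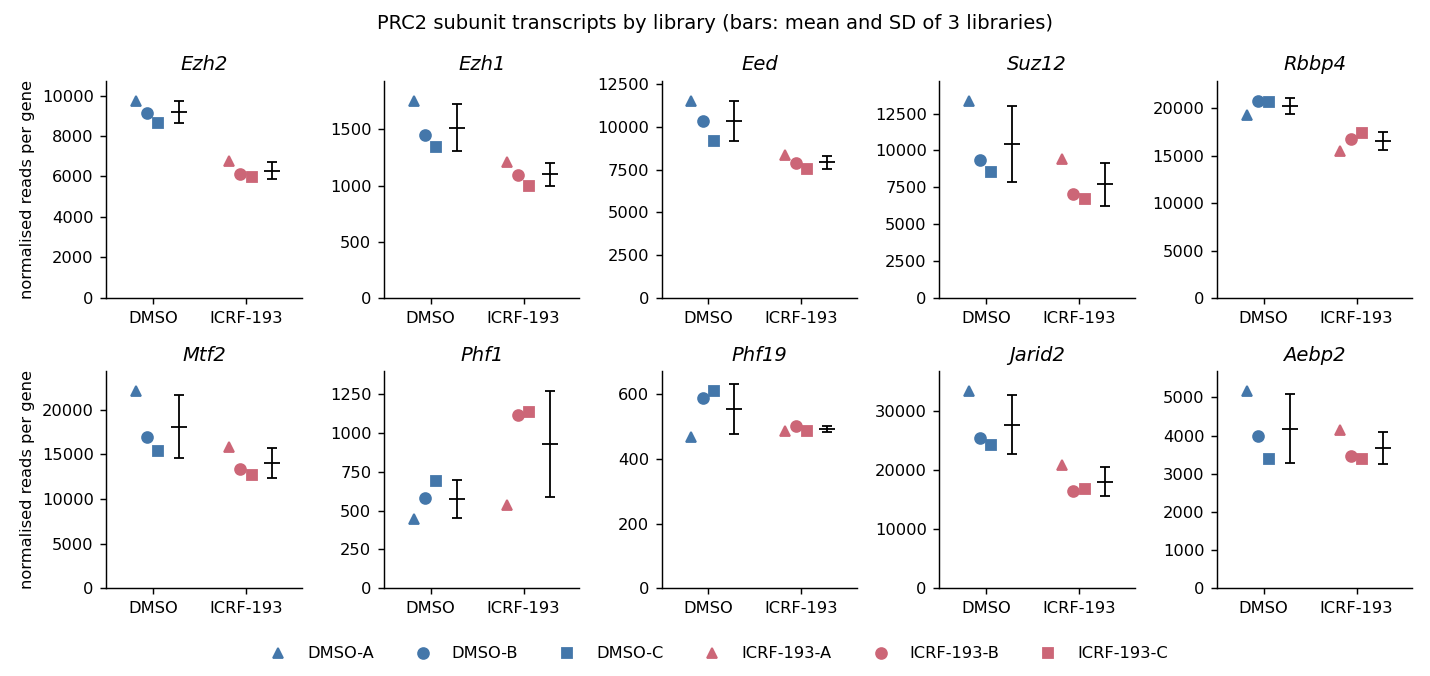
Normalised reads per gene (vertical axis, from 0) of the 10 PRC2 subunit genes in each of 3 DMSO and 3 ICRF-193 libraries; triangles, circles and squares are libraries A, B and C, and the black bars are the mean and SD of the 3 libraries. The groups are apart for Ezh2, Ezh1, Eed, Rbbp4 and Jarid2, and they overlap for Suz12, Mtf2, Phf1, Phf19 and Aebp2.

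Ezh2, the main methyltransferase of dividing cells, was at 9743, 9134 and 8668 normalised reads in the DMSO libraries A, B and C. In the ICRF-193 libraries A, B and C it was at 6790, 6119 and 5966. All 3 treated libraries lay below all 3 controls, and the means were 9182 ± 539 and 6292 ± 438 (SD, n = 3). The log2 fold change in the authors' deposited table was -0.55 (DESeq, adjusted p = 0.18). The ratio of ICRF-193 to DMSO was 0.697 in libraries A and 0.679 in libraries B and C. By limma-voom Ezh2 fell by 0.55 on the log2 scale (SE 0.09, adjusted p = 0.0147), and with the split term by 0.55 (SE 0.05, adjusted p = 4.76e-06). The group fit no longer passed without DMSO-B, ICRF-193-B or ICRF-193-C (limma-voom, adjusted p = 0.0739, 0.0793 and 0.0754), in which 1 fewer library also leaves fewer degrees of freedom.

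Ezh1, the relative that predominates in cells at rest, was the less abundant of the pair per kilobase of exon. It was at 1755, 1448 and 1347 normalised reads in the DMSO libraries A, B and C, and at 1206, 1096 and 998 in those with ICRF-193. The groups did not overlap, with means of 1517 ± 213 and 1099.7 ± 104 (SD, n = 3). In the authors' deposited table its log2 fold change was -0.46 (DESeq, adjusted p = 0.302). By limma-voom the adjusted p was 0.0743 with the group term and 0.000189 with the split term, at log2 fold changes of -0.46 in both. Per kilobase of exon, Ezh1 made up 7.05% ± 0.535 of the summed Ezh1 and Ezh2 level in DMSO and 7.45% ± 0.255 in ICRF-193 (SD, n = 3), values that overlap between the groups (exact permutation test, two-sided, p = 0.4). The log2 ratio of Ezh1 to Ezh2 reads was -2.60 ± 0.12 in DMSO and -2.52 ± 0.05 in ICRF-193 (SD, n = 3), a difference of 0.09.

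Eed was at 11524, 10344 and 9153 normalised reads in the DMSO libraries A, B and C and at 8332, 7902 and 7564 in the ICRF-193 libraries. Every treated library was lower than every control. Suz12, the scaffold, was at 13370, 9343 and 8550 in the DMSO libraries and at 9394, 7029 and 6696 in the treated ones. Here ICRF-193-A lay above DMSO-B and DMSO-C, so the groups overlapped, while within libraries A and within libraries B and C the treated values were the lower ones. For Eed the log2 fold change was -0.38 in the authors' deposited table (DESeq, adjusted p = 0.436), and for Suz12 -0.44 (DESeq, adjusted p = 0.425). Both were called lower by limma-voom once the split term was in the model, Eed at -0.38 (SE 0.06, adjusted p = 0.000242) and Suz12 at -0.43 (SE 0.05, adjusted p = 6.29e-05). With the group term alone neither passed (limma-voom, adjusted p = 0.0649 and 0.214). The Suz12 ratio was 0.703 in libraries A and 0.767 in libraries B and C, and without DMSO-A alone its log2 fold change was -0.23 (limma-voom, adjusted p = 0.429).

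Rbbp4 encodes a histone chaperone that PRC2 shares with other chromatin complexes. It was at 19309, 20815 and 20636 normalised reads in DMSO and at 15554, 16773 and 17366 in ICRF-193, with no overlap (20253 ± 823 and 16564 ± 924, SD, n = 3). It was one of the 3 members, with Phf1 and Phf19, whose level was lower in library A than the mean of B and C in both groups. The log2 fold change in the authors' deposited table was -0.29 (DESeq, adjusted p = 0.652), and limma-voom with the split term gave -0.29 (SE 0.04, adjusted p = 0.00015). For Rbbp4, Jarid2 and Mtf2 more than 1 set of whole reads gave the printed mean of at least 1 group, and the set that matched the spread of other genes was used (posterior at least 0.99).

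The promoters of the members were read from the RefSeq windows of build GRCm38.p6, 250 bases before to 50 after a start, which all 10 genes matched by symbol (14 windows). The E2F motif, bound by factors that switch on genes of the cell cycle, was searched on both strands as TTTCCCGC, TTTGGCGC, TTTGCCGC or TTTCGCGC. It was found in 3 member genes, Ezh2, Suz12 and Phf19, and in 2.6% of 27025 genes with a window. The CCAAT box, searched as CCAAT on both strands, was found in 7 members and 41.1% of genes, and the GC box, searched as GGGGCGGGG, in 5 members and 12.9%. The letters CCGGAAGT (ETS motif) were in 0 member windows and in 4.31% of genes. TTTGAA, the letters of the CHR element, was in 4 members and 20.2% of genes. The stretches below show the E2F matches, the first GC box of Phf1, the member at a higher mean, and the bases before the start of Suz12, with matches to the E2F motif, CCAAT box and GC box in capitals, 5′ to 3′ on the strand of the gene.
Ezh2, chr6:47595015-47595044, minus strand: gcgATTGGgttgctgcgTTTGGCGCtcggt
Suz12, chr11:79992870-79992899, plus strand: ccgctccgacccctcatTTTCCCGCgaatt
Phf19, chr2:34914172-34914201, minus strand: ggggacgtcaataattcGCGGGAAAacgcg
Phf1, chr17:26933044-26933073, plus strand: agcttggagtggccacgGGGGCGGGGcagc
Suz12, chr11:79992956-79993105, plus strand: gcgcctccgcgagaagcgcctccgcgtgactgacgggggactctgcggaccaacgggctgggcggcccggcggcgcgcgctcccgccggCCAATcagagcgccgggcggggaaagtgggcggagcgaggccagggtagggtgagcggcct
Of the 3 genes with an E2F match, Ezh2 and Suz12 passed the fit with the split term and Phf19 did not. All 3 were called lower without both libraries A (limma-voom, log2 fold changes of -0.56, -0.38 and -0.27). Ezh1, Eed, Jarid2, Mtf2 and Rbbp4, which have no such match, were called lower in both fits, and Aebp2 in the first. These fits called 32.6% and 28.8% of all genes lower. A match of letters is a description of the window and no sign of binding, and the motifs were chosen with the values known. The NRF1 motif was also searched, and was in 0 members and 1.07% of genes. GC content of the members' first windows ran from 48% (Aebp2) to 74.3% (Phf19), beside a median of 52.7% over all windows. Their CpG counts ran from 4 (Aebp2) to 41 (Suz12), beside a median of 7. Only Aebp2 lay below these medians. The shares of genes were not matched for GC or CpG content, and enrichment in the members was not tested.

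**Figure D2:**
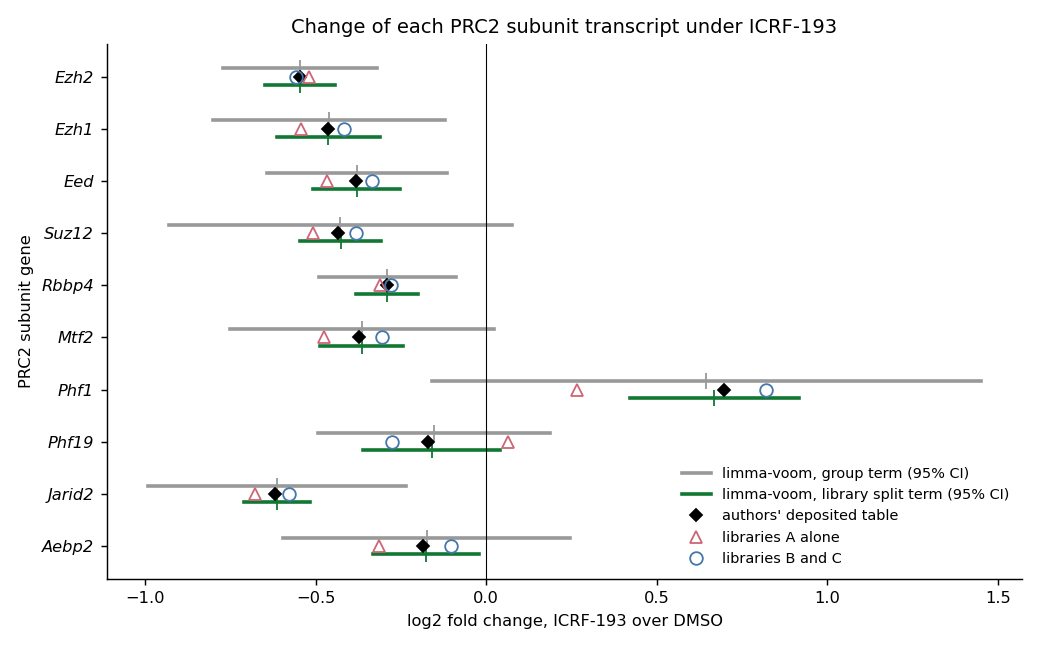
Log2 fold change of ICRF-193 over DMSO (horizontal axis) for each PRC2 subunit gene: black diamonds are the authors' deposited table, open triangles libraries A alone, open circles libraries B and C, and the bars are 95% confidence intervals of limma-voom with the group term (grey) and with the library split term (green). Phf1 is the only gene whose points all lie to the right of 0, with a grey interval that crosses 0; for Phf19 libraries A lie at 0.06 and libraries B and C at -0.28.

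The Polycomb-like proteins bind unmethylated CpG islands and recruit the complex to chromatin. Mtf2, which made up 92.2% ± 2.52 (SD, n = 3) of their summed level per kilobase of exon in DMSO, was at 22073, 16925 and 15355 normalised reads in DMSO and at 15872, 13415 and 12698 in ICRF-193. The groups overlapped by 1 library, ICRF-193-A, which was above DMSO-C. The log2 fold change in the authors' deposited table was -0.37 (DESeq, adjusted p = 0.437). With the split term Mtf2 fell by 0.37 on the log2 scale (limma-voom, SE 0.06, adjusted p = 0.000238), and without DMSO-A alone the log2 fold change of the group fit was -0.21 (limma-voom, adjusted p = 0.378).

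Phf1 went the other way. It was at 445, 582 and 691 normalised reads in the DMSO libraries A, B and C and at 535, 1115 and 1133 in the ICRF-193 libraries A, B and C. Both libraries A were the lowest of their group, and ICRF-193-A lay below DMSO-B and DMSO-C. The ratio was 1.2 in libraries A and 1.77 in libraries B and C. A limma-voom interaction of treatment and library split gave a difference of -0.56 (SE 0.18) for Phf1, with an unadjusted p of 0.0105 and an adjusted p of 0.449. None of the 14986 genes passed that interaction test, and 1157 of them (7.72%) had an unadjusted p under 0.05 (limma-voom). For Phf1 the authors' deposited table has a log2 fold change of 0.70 (DESeq, adjusted p = 0.394). By limma-voom the adjusted p was 0.238 with the group term, 0.000467 with the split term (log2 fold change 0.67, SE 0.11) and 0.0298 without ICRF-193-A alone (log2 fold change 1.01). Of the exonic bases of Phf1, 1370 overlap exons of Cuta on the opposite strand in the GENCODE M21 annotation. The strand of the kit is not given in the sources used here, so reads from those bases cannot be assigned with certainty. Cuta was at 1669.7 normalised reads in DMSO and 1149 in ICRF-193 in the authors' deposited table, a difference in the other direction. Opposite-strand exons also overlap 782 exonic bases of Rbbp4 (Sync, at 62.5 normalised reads in DMSO in the authors' deposited table) and 395 of Mtf2 (Tmed5, at 2056). Non-coding genes on the opposite strand overlap 796 bases of Rbbp4 (Gm26722), 261 of Eed (E230029C05Rik), 178 of Suz12 (Gm26563), 174 of Ezh2 (Gm26625) and 156 of Phf1 (AC144621.3). Ezh1, Jarid2, Phf19 and Aebp2 have no such overlap.

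Phf19 was at 466, 587 and 608 normalised reads in DMSO and at 487, 501 and 487 in ICRF-193, so that the treated libraries fell inside the range of the controls. Its log2 fold change was -0.17 in the authors' deposited table (DESeq, adjusted p = 0.908). Of 14 fits it passed 1, limma-voom without both libraries A (log2 fold change -0.27, SE 0.09, adjusted p = 0.0314). With the split term its adjusted p was 0.152 and the 95% confidence interval of the log2 fold change ran from -0.36 to 0.04 (limma-voom). Per kilobase of exon, Phf1 made up 2.94%, 4.85% and 6.21% of the summed level of the 3 Polycomb-like genes in the DMSO libraries A, B and C. It made up 4.77%, 10.9% and 11.6% in the ICRF-193 libraries A, B and C. The means were 4.67% ± 1.64 and 9.11% ± 3.77 (SD, n = 3), ICRF-193-A lay within the range of the controls, and the difference did not pass (exact permutation test, two-sided, p = 0.3, adjusted p = 0.557 over 13 ratios and shares). With 3 libraries against 3 the smallest p this test can give is 0.1.

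**Figure D3:**
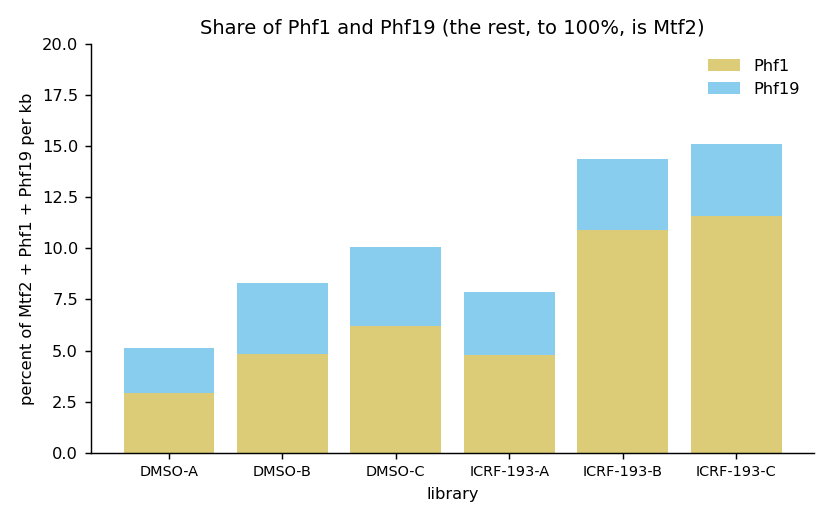
Share of Phf1 (yellow) and Phf19 (blue), in percent of the summed level of Mtf2, Phf1 and Phf19 per kilobase of exon, in each of the 6 libraries; the rest, up to 100%, is Mtf2. Phf1 reaches 10.9% and 11.6% in ICRF-193-B and ICRF-193-C and stays at 4.77% in ICRF-193-A, while Phf19 lies between 2.17% and 3.87% in all libraries.

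Jarid2, which lacks the demethylase activity of its relatives and helps bring PRC2 to its targets, had the lowest ratio of the members, at 0.652 in the authors' deposited table. It was at 33437, 25511 and 24334 normalised reads in the DMSO libraries A, B and C and at 20898, 16590 and 16792 in the ICRF-193 libraries A, B and C. The highest treated library was below the lowest control. The log2 fold change in the authors' deposited table was -0.62 (DESeq, adjusted p = 0.0896), the lowest adjusted p of the 10 members there. By limma-voom Jarid2 fell by 0.61 on the log2 scale, with SE 0.16 and an adjusted p of 0.0459 with the group term, and SE 0.04 and an adjusted p of 1.57e-06 with the split term. The group fit did not pass without DMSO-B, DMSO-C, ICRF-193-B or ICRF-193-C, with adjusted p-values of 0.114, 0.0784, 0.163 and 0.148 (limma-voom).

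Aebp2, the partner of JARID2 in the same form of the complex, was at 5160, 3987 and 3387 normalised reads in DMSO and at 4148, 3471 and 3397 in ICRF-193. The treated libraries lay within the range of the controls. In the authors' deposited table its log2 fold change was -0.19 (DESeq, adjusted p = 0.8). It passed the fit with the split term narrowly (limma-voom, log2 fold change -0.18, SE 0.07, adjusted p = 0.0499) and not the fit without both libraries A (limma-voom, -0.10, adjusted p = 0.319). Without DMSO-A alone its log2 fold change was -0.01 (limma-voom, adjusted p = 0.975). The ratio of Jarid2 to Aebp2 was lower in each treated library than in each control: the log2 ratio of Jarid2 to Aebp2 reads was 2.70, 2.68 and 2.85 in the DMSO libraries and 2.33, 2.26 and 2.31 in the treated ones. The mean difference was -0.44 (exact permutation test, two-sided, p = 0.1, the smallest it can give, adjusted p = 0.433 over 13 ratios and shares). The log2 ratio of Ezh2 to Eed likewise did not overlap, at -0.17 ± 0.08 in DMSO and -0.34 ± 0.04 in ICRF-193 (SD, n = 3, exact permutation test, p = 0.1, adjusted p = 0.433). That of Eed to Suz12 was 0.01 ± 0.20 and 0.06 ± 0.20 (SD, n = 3, exact permutation test, p = 0.5).

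Levels were compared between genes only per kilobase of exon, with exonic lengths from the GENCODE M21 basic annotation. In DMSO Eed was highest at 5003 ± 574 normalised reads per kb, followed by Rbbp4 (4596 ± 187), Jarid2 (4508 ± 804), Mtf2 (4463 ± 866), Ezh2 (3277 ± 192) and Suz12 (2383 ± 591; all SD, n = 3). The libraries of the first 4 overlapped, while Ezh2 lay below all of them and above Suz12 in each library. Aebp2 (512 ± 111), Ezh1 (249 ± 35), Phf1 (217 ± 46.6) and Phf19 (148 ± 20.6) formed a lower set, in which the libraries of Ezh1 and Phf1 overlapped and those of the other neighbours did not (SD, n = 3). Eed stood above 97.8% of genes with a length and Phf19 above 52.7%. In ICRF-193 the order of the upper set was Eed, Rbbp4, Mtf2, Jarid2, Ezh2 and Suz12. In the lower set Phf1 (351 ± 129) came before Ezh1 (181 ± 17.1, SD, n = 3). The Phf1 levels and shares per kilobase carry the limit of the Cuta overlap given above. Exonic lengths ran from 2067 bases for Eed to 8163 for Aebp2. The log2 ratio of library A to the mean of B and C was above 0 in both groups for 7 members, from 0.11 to 0.58. It was below 0 in both for Phf1 (-0.52 in DMSO and -1.07 in ICRF-193), Phf19 (-0.36 and -0.02) and Rbbp4 (-0.10 and -0.13).

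**Figure D4:**
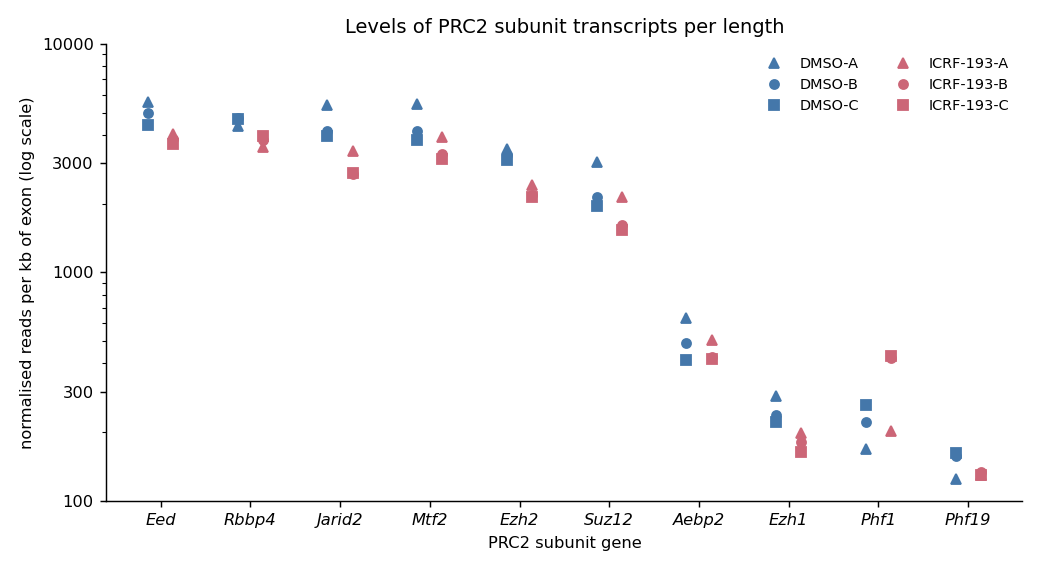
Normalised reads per kilobase of exon (vertical axis, log scale) of the 10 PRC2 subunit genes, ordered by their DMSO mean, with triangles, circles and squares for libraries A, B and C of DMSO (blue) and ICRF-193 (red). The 6 genes from Eed to Suz12 stand above the 4 from Aebp2 to Phf19 in each library, and Phf1 is the only one whose mean is higher with ICRF-193.

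Genes that work with or against PRC2 were taken from lists chosen by name. The list of further PRC2 factors held 10 genes: PRC2 factors, demethylases of the PRC2 mark, and Nsd1, which is neither. Of the 10, 0 were called in the authors' deposited table by DESeq and 0 by limma-voom with the group term. With the split term 7 were called lower, Nsd1 among them, and 0 higher (limma-voom, 32.6% and 27.1% of all genes). Kdm6a, which removes the PRC2 mark, was at 0.759 of its DMSO level in the authors' deposited table (DESeq, adjusted p = 0.437) and passed with the split term (limma-voom, log2 fold change -0.39, SE 0.05, adjusted p = 0.000126). Kdm6b, the other demethylase of this mark, was at 0.967 (authors' deposited table). Rbbp7, the alternative to Rbbp4, was at 0.877, and E130012A19Rik, the older symbol of the Polycomb-like partner Epop, at 0.874 in the authors' deposited table. The largest uncalled difference of this list was that of 2810030E01Rik (Skida1) at -1.11 among those lower and that of AU022751 (Ezhip) at 0.18 among those higher (log2, authors' deposited table, DESeq adjusted p = 0.454 and 0.916). Of 21 genes of the companion complex PRC1, which binds the PRC2 mark and ubiquitinates histone H2A, 0 were called by DESeq in the authors' deposited table. In it 15 of them had a ratio below 1, as had 8866 of 17705 genes with both means above 0. The largest differences in each direction were Phc1 at -0.59 and Phc2 at 0.51 (log2, authors' deposited table, DESeq adjusted p = 0.121 and 0.258). Of the 21, limma-voom called 12 lower and 3 higher with the split term (32.6% and 27.1% of all genes) and 5 and 1 with the group term (5.96% and 9.76%). The PRC1 median of -0.21 in the authors' deposited table lay between that of the PRC2 subunits and that of all genes.

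Of 25 E2F and replication genes, 1, the clamp loader subunit Rfc4, fell in the authors' deposited table (log2 fold change -0.78, DESeq, adjusted p = 0.0232). In that test 1.26% of all genes with reads were called lower. The median of this list was -0.10 in that deposited table, with 20 genes below a ratio of 1, beside 8866 of 17705 genes with both means above 0. For this list limma-voom called 2 lower and 1 higher with the group term and 12 and 4 with the split term. Over all genes these fits called 5.96% and 9.76%, and 32.6% and 27.1%. In the latter fit, total read scaling, which moves all genes alike, gave 5 lower and 5 higher (20.6% and 35.4% of all genes). The list median was then 0.03, beside 0.08 for all genes. The largest uncalled differences in each direction were Mcm6, a helicase subunit, at 0.700, and the transcription factor E2f2 at 1.65 times the DMSO level in the authors' deposited table (DESeq, adjusted p = 0.217 and 0.0588). Both passed limma-voom with the group term (log2 fold changes of -0.51 and 0.72, adjusted p = 0.0103 and 0.0141).

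Among 35 developmental regulators known as PRC2 targets in ES cells, 4 rose, 1 fell and 30 did not pass DESeq in the authors' deposited table. Of all genes with reads, 5.97% were called higher and 1.26% lower there. The median log2 fold change of the targets was 0.67, beside -0.001 for all genes with both means above 0. A ratio above 1 was seen for 27 targets, and for 8839 of 17705 genes with both means above 0. Some of the 27 were near the floor, such as Wnt1, at 0.36 and 0.69 normalised reads in DMSO and ICRF-193. Nkx2-2 is a regulator of the ventral neural tube. As recovered, it was at 1.59, 0.992 and 5.40 normalised reads in the DMSO libraries and at 17.1, 20.7 and 23.6 in the ICRF-193 libraries. Nkx2-2 rose in the authors' deposited table (log2 fold change 2.94, DESeq, adjusted p = 0.00159), but so few DMSO reads leave the size of its fold uncertain. Pax7 and Lhx5 rose from 2.81 to 16.7 and from 6.90 to 26.3 normalised reads (authors' deposited table, DESeq, adjusted p = 0.0167 and 0.0223), and Neurog2 from 0.626 to 20.2, on too few reads for a fold (adjusted p = 0.00403). The gene that fell was Pax6, needed for eye and forebrain development, from 564, 503 and 482 normalised reads in the recovered DMSO libraries to 180, 193 and 166 (authors' deposited table, log2 fold change -1.52, DESeq, adjusted p = 9.67e-07). The summed level of the targets was 9525, 3923 and 3800 in the DMSO libraries and 10579, 5577 and 5368 in the ICRF-193 libraries, highest in library A of both, and the part of the library split in these values was not tested. Of the 26 targets with enough reads for limma-voom, 3 were called higher and 2 lower with the group term, 17 and 3 with the split term, and 14 and 3 without both libraries A. The 3 called higher with the group term were Pax7, Nkx2-2 and Lhx5, with DMSO means of 2.81, 2.66 and 6.90 normalised reads. They reached the read filter only through the ICRF-193 libraries, where they were high. Their count is therefore no support for a rise of the targets. Over all genes the shares higher and lower were 9.76% and 5.96%, 27.1% and 32.6%, and 25.1% and 28.8%.

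**Figure D5:**
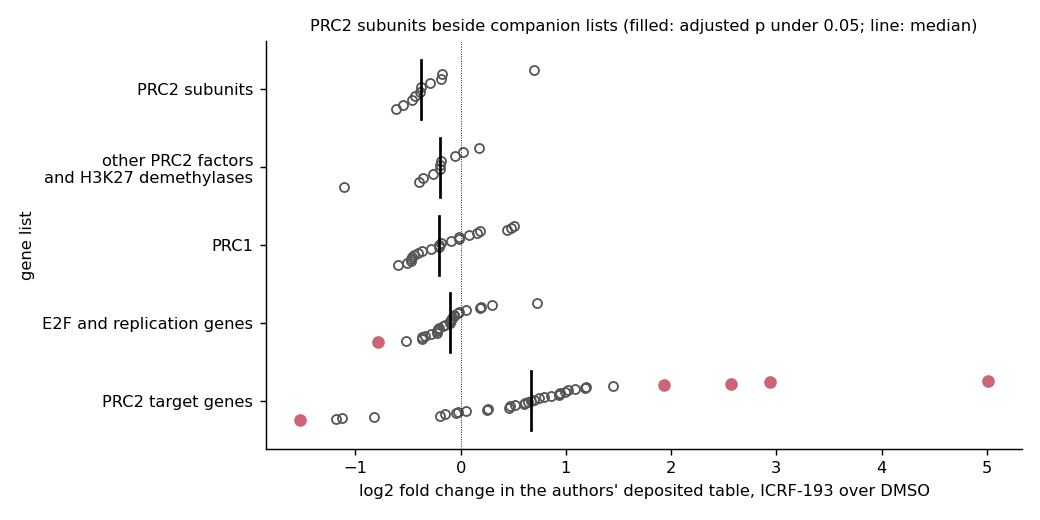
Log2 fold change of ICRF-193 over DMSO in the authors' deposited table (horizontal axis) for the PRC2 subunits and 4 companion lists; each circle is a gene, filled where the deposited adjusted p is under 0.05, and the black lines are list medians. The medians are -0.38 for PRC2 subunits, -0.21 for PRC1, -0.10 for E2F and replication genes and 0.67 for PRC2 targets.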

How the data were processed

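The single deposited file is the authors' own comparison; per the submitters' processing notes it was made with TopHat, HTSeq and DESeq on mm9, and versions, annotation and strand are not given in the sources used here. Its values per group are a deposited signal: normalised reads averaged over 3 libraries by the authors. The deposited ratio divides the ICRF-193 value by the DMSO value, the deposited log2 column is its log2, and the deposited p-values are raw and Benjamini-Hochberg adjusted over 18759 genes with reads. The deposited test is the main result.

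Whole reads per library were recovered from the 15 printed digits by a lattice search: 18208 genes had a single solution, 510 were chosen by posterior and 41 stayed unresolved. In simulated reads all 2902 single and 378 posterior solutions were right. The 14986 genes that reached 10 reads in 3 or more libraries were then tested by limma-voom, run in R 4.3.3 with limma 3.58.1. In simulated data for ICRF-193 against DMSO on 14986 genes, the model with the group term recovered 0 of 67 genes shifted by 0.5 (log2), 27 of 67 shifted by 1 and 52 of 66 shifted by 2, and made 0 false calls. Adding the split term gave 56, 67 and 66 and 11 false calls, in data where libraries A shift alike in both groups, as that term assumes. The simulation took the split as known and gave all genes the same dispersion. Its false calls therefore do not measure the error of the split-term p-values in the real libraries. Depth was 27371216 to 43923529 recovered reads per library; the unresolved genes, none of them a member, hold 7.78% of the DMSO and 7.07% of the ICRF-193 signal. Exonic lengths come from the GENCODE M21 basic annotation and overlaps from the full GENCODE M21 annotation (both GRCm38), since mm9 was not used here. Promoter sequences come from RefSeq (GRCm38.p6). All 10 members are named; from companion and ES marker lists, called genes (up to 8) and, for PRC1 and the further factors, the largest uncalled ones are named, with Top2a and Top2b, and with Kdm6a, Kdm6b, Rbbp7, Epop, Mcm6, E2f2 and Thy1 added after their values were seen. The members and lists were chosen with earlier results of these data known. Alternatives were scaling, filters, pseudocounts and leaving out libraries.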

Additional observations from a re-analysis of the deposited data

How the results depend on the processing

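All 10 members kept the direction of the deposited table in each of the 14 fits run, with pseudocounts of 1 and 10 as well. Called lower and higher members, 0 and 0 in the deposited table, were 2 and 0 in limma-voom with the group term, 8 and 1 with the split term and also without both libraries A. They were 3 and 0 with TMM scaling, 1 and 0 with upper quartile and with total read scaling, 2 and 0 with no filter, and 7 and 1 with both the split term and scaling by total reads, a fit added after seeing the data. Leaving out 1 library gave 0 to 3 lower and 0 to 1 higher. Total read scaling moved the median log2 fold change of all genes from -0.04 to 0.08, and the changes given above are relative to the deposited scaling.

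Of all genes, 1120 higher and 237 lower in the deposited table (82.5% higher) became 1462 and 893 (62.1%) with the group term, 4058 and 4891 (45.3%) with the split term, 3763 and 4318 without both libraries A, 1413 and 975 with TMM, 1662 and 608 with upper quartile, 1843 and 412 with total read scaling, 1492 and 761 with no filter, and 5306 and 3089 (63.2%) with both the split term and scaling by total reads. Leaving out 1 library gave 476 to 1723 higher and 110 to 1390 lower.

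Called genes in either direction, in the order deposited table, group term, split term, without both libraries A, split term and totals together, were 0, 0, 7, 7 and 4 for further PRC2 factors, 5, 5, 20, 17 and 21 for PRC2 targets, 0, 6, 15, 14 and 12 for PRC1, and 1, 3, 16, 16 and 10 for E2F and replication genes. With TMM, upper quartile, total read scaling and no filter PRC1 had 6, 4, 2 and 5, and E2F and replication genes had 3, 4, 5 and 3. Leaving out 1 library gave 1 to 9 for PRC2 targets, 0 to 7 for PRC1 and 0 to 4 for E2F and replication genes. The highest counts of these lists, of lower members and of all genes came without DMSO-A, and the only higher member, Phf1, came without ICRF-193-A. The cause of these shifts was not tested.

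No paired analysis was possible because neither the deposited columns nor the recovered libraries carry a replicate number. The split term sets both libraries A against B and C, a grouping seen in the data and not given by the labels.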
